A study of Mus musculus with 2 samples.

Results

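The homeostatic microglia signature is a group of genes that microglia of the healthy brain express together and that most other brain cells express little or not at all. The 9 genes described here, Cx3cr1, Tmem119, Siglech, Csf1r, Fcrls, Sparc, Olfml3, Selplg and Slc2a5, were listed by name. The rule sets no measured value, but results of these data were known when the list was drawn up. They were matched by symbol in the tables of single-cell values for each of 12 clusters of sorted cells, and 9 of 9 were found among the 32285 genes listed.

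Microglia are the resident macrophages of the brain. Their survival depends on Csf1r, the receptor tyrosine kinase for the cytokines Csf1 and Il34, and their mature state is kept up by TGF-beta signalling and by transcription factors such as PU.1 (Spi1) and Irf8. Signature genes are generally turned down when microglia respond to injury, disease or ageing, so that their level is widely used to describe the state of these cells. The list holds surface receptors (Csf1r, Cx3cr1, Siglech, Fcrls), other membrane proteins (Tmem119, Selplg, Slc2a5) and secreted proteins (Sparc, Olfml3).

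The cells were EYFP+ cells sorted from the dissected dentate gyrus (DG) of adult mice, in 1 WT and 1 iKD library of 5 pooled mice each, 21 d after tamoxifen, which was given for 5 d. WT mice carried NestinCreERT2, wild-type VEGF alleles and the ROSA-STOP-EYFP reporter. The iKD mice, labelled KO, carried NestinCreERT2, floxed VEGF alleles and the same reporter, and both groups received tamoxifen. The Nestin promoter drives the Cre, which was meant to mark neural stem cells and their progeny and, in iKD mice, to delete Vegfa from them. With 1 library per genotype no test between genotypes was possible, so intervals below are 95% counting intervals that hold no spread between mice.

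The deposited cluster names run from qNSC1, qNSC2 and aNSC through NSPCs, IPC1, IPC2, eNB and NB to IN1, IN2, Astrocytes and Undefined. The WT library held 5543 cells with a median of 8051 unique molecular identifiers (UMIs) and the iKD library 5261 cells with a median of 7080. Over the 8 clusters from qNSC1 to NB, which held 10292 cells, 10 microglia markers outside the signature were found in a median of 99.9% of cells, and the 9 neural stem cell markers in a median of 0.36%. Nes, the gene of the driver, had UMIs in 0.952% of these cells, Dcx in 0.0486% and Eomes in 0.00972%, and the border macrophage markers in a median of 0.0826%. In the cluster named Astrocytes, the 5 astrocyte markers had UMIs in a median of 1.49% of cells, with 25.4% for Aldh1l1 and 0.746% for Aqp4, and the 8 choroid plexus markers in a median of 79.9%. In the 6 clusters from qNSC1 to IPC2, Vegfa, the targeted gene, had 74 UMIs in WT (3752 cells) and 36 in iKD (3412 cells), with levels of 0.0226 (0.0177 to 0.0284) and 0.0137 (0.00962 to 0.019) UMIs per 10,000. The sources used here do not say which part of Vegfa is floxed, so these counts from 3′ ends cannot check the deletion. The libraries shared 9 cell barcodes.

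The 9 genes are annotated as protein coding in the mouse genome (GRCm38, GENCODE), whose coordinates are given here and may not be those of the build the reads were aligned to. Cx3cr1 lies at chr9:119901616-120069879 on the minus strand, Siglech at chr7:55768178-55778925 on the plus strand and Sparc at chr11:55394500-55423183 on the minus strand. Fcrls and Olfml3 share chromosome 3, at chr3:87250758-87263738 and chr3:103722222-103738001, both on the minus strand. Slc2a5 lies at chr4:150119283-150144169 on the plus strand. Tmem119 (chr5:113793729-113800516) and Selplg (chr5:113818536-113832644) are near neighbours on the minus strand, with 18.0 kb between them.

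RefSeq promoter windows (GRCm38.p6) were at hand for 6 of the 9 genes, Cx3cr1, Siglech, Fcrls, Sparc, Olfml3 and Slc2a5. The letters GAGGAAG, a form of the site that PU.1 is known to bind, were searched for on both strands in the 250 bases before each start. They were found in 1 of the 6 windows, that of Fcrls, beginning 144 bases before the RefSeq start, and in 10.6% of all 32851 windows of that length. A match is a description of the letters and not evidence of binding, and a window without one says nothing about the factor. Stretches are shown for Fcrls, the member with the widest range between clusters, and for Olfml3, of the secreted pair low in IN2. Siglech is shown as the receptor whose level was slightly higher in the iKD library, a difference that was not tested. The stretches lie before the RefSeq starts and outside annotated exons, that of Fcrls within the gene's longer GENCODE span. They cover chr3:87263600-87263677 (Fcrls, minus strand), chr7:55768078-55768177 (Siglech, plus strand) and chr3:103738002-103738101 (Olfml3, minus strand), each written 5′ to 3′ along the gene's own strand with a match to GAGGAAG in capitals.
Fcrls: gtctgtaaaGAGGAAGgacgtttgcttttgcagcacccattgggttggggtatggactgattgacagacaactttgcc
Siglech: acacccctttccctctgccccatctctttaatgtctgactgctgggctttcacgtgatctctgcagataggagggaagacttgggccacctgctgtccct
Olfml3: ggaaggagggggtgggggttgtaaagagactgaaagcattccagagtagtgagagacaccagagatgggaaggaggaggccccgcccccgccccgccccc

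Levels below are means over cells of UMIs per 10,000 UMIs of the cell, and each order of clusters runs over the 8 clusters from qNSC1 to NB with both genotypes together. These clusters were made from all genes of the same cells, with both libraries together. Their differences, and the likeness of the libraries within them, are therefore a description. Where the counting intervals of neighbours in an order overlap, those neighbours did not differ beyond counting error, which was so for 23 of the 63 neighbouring pairs. Clusters also differed in sex. Of cells that could be scored by Xist and Y-linked genes, 91.7% were female in IPC1, 94.6% in eNB and 6.91% in IPC2. The part of sex in the order of these clusters was not tested.

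Among the receptors, Csf1r had the narrowest range. Its level was 20.7 (20.1 to 21.3) in qNSC1 and 23.2 in qNSC2, 24.9 in aNSC, 25.6 in IPC1, 25.9 in eNB, 26.5 in IPC2, 27.4 in NSPCs and 28.2 in NB, a 1.36-fold span. Both qNSC clusters lay below all others, and eNB, IPC1 and aNSC followed each other with overlapping intervals. Cx3cr1, the receptor for the neuronal chemokine fractalkine (Cx3cl1), spanned 1.39-fold, from 31.3 in qNSC1 and 32.2 in qNSC2, which overlapped, to 43.4 in NSPCs and 43.6 in NB, which also overlapped. The remaining clusters lay between 37.8 (aNSC) and 42.3 (IPC1).

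Siglech, a sialic acid-binding receptor that signals through the adaptor Tyrobp, spanned 1.85-fold. It was lowest in qNSC1 (8.77) and qNSC2 (11.6) and highest in NB (16.2), and IPC2, NSPCs, eNB and IPC1 lay close together between 14.3 and 14.7 with overlapping intervals. Fcrls, an Fc receptor-like protein of myeloid cells, had the widest range of the 9 genes, 3.03-fold. Its level was 7.06 (6.80 to 7.33) in qNSC2 and 13.8 in aNSC, against 17.2 in qNSC1 and 18.3 to 21.4 in the other 5 clusters. Fcrls and Sparc were lower in qNSC2 than in qNSC1, and the other 7 members were lower in qNSC1, with overlapping intervals for Cx3cr1.

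Of the other membrane proteins, Tmem119, a transmembrane protein used as a microglia marker, was at 6.76 (6.43 to 7.10) in qNSC1 and 10.0 in qNSC2, 11.6 in eNB, 12.3 to 13.2 in aNSC, IPC1, IPC2 and NB, and 14.5 in NSPCs, a 2.15-fold span. Selplg, the ligand of P-selectin, followed the same course, with 11.6 in qNSC1, 18.8 in qNSC2, 19.7 to 21.5 in eNB, IPC1, IPC2 and aNSC, 23.4 in NB and 23.8 in NSPCs, a 2.05-fold span. Slc2a5, the fructose transporter GLUT5, spanned 2.72-fold at a low level, from 1.40 (1.25 to 1.56) in qNSC1, 1.98 in qNSC2 and 2.64 in aNSC to 3.80 in NB. These 3 genes had their lowest level in qNSC1 in WT and in iKD cells alike.

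Of the secreted proteins, Sparc, a matricellular glycoprotein, was lowest in qNSC2 (27.4) and qNSC1 (29.4) and highest in NSPCs (39.97), a 1.46-fold span in which eNB overlapped with aNSC, and aNSC with qNSC1. Olfml3, an olfactomedin-domain protein, lay between 9.96 in qNSC1 and 14.0 in NSPCs, a 1.41-fold span, and IPC2, aNSC, eNB and qNSC2 followed each other between 11.0 and 11.9 with overlapping intervals. The plot of levels by cluster shows both libraries, whose order was alike at its ends but not throughout. Tmem119 in aNSC, for one, lay above eNB in WT (13.1 and 11.95) and below it in iKD cells (11.0 and 11.2). The lowest of the 8 clusters was the same in WT and iKD cells for 9 of 9 members and the highest for 8 of 9, the exception being Cx3cr1, which was highest in NB in WT and in NSPCs in iKD cells.

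**Figure D1:**
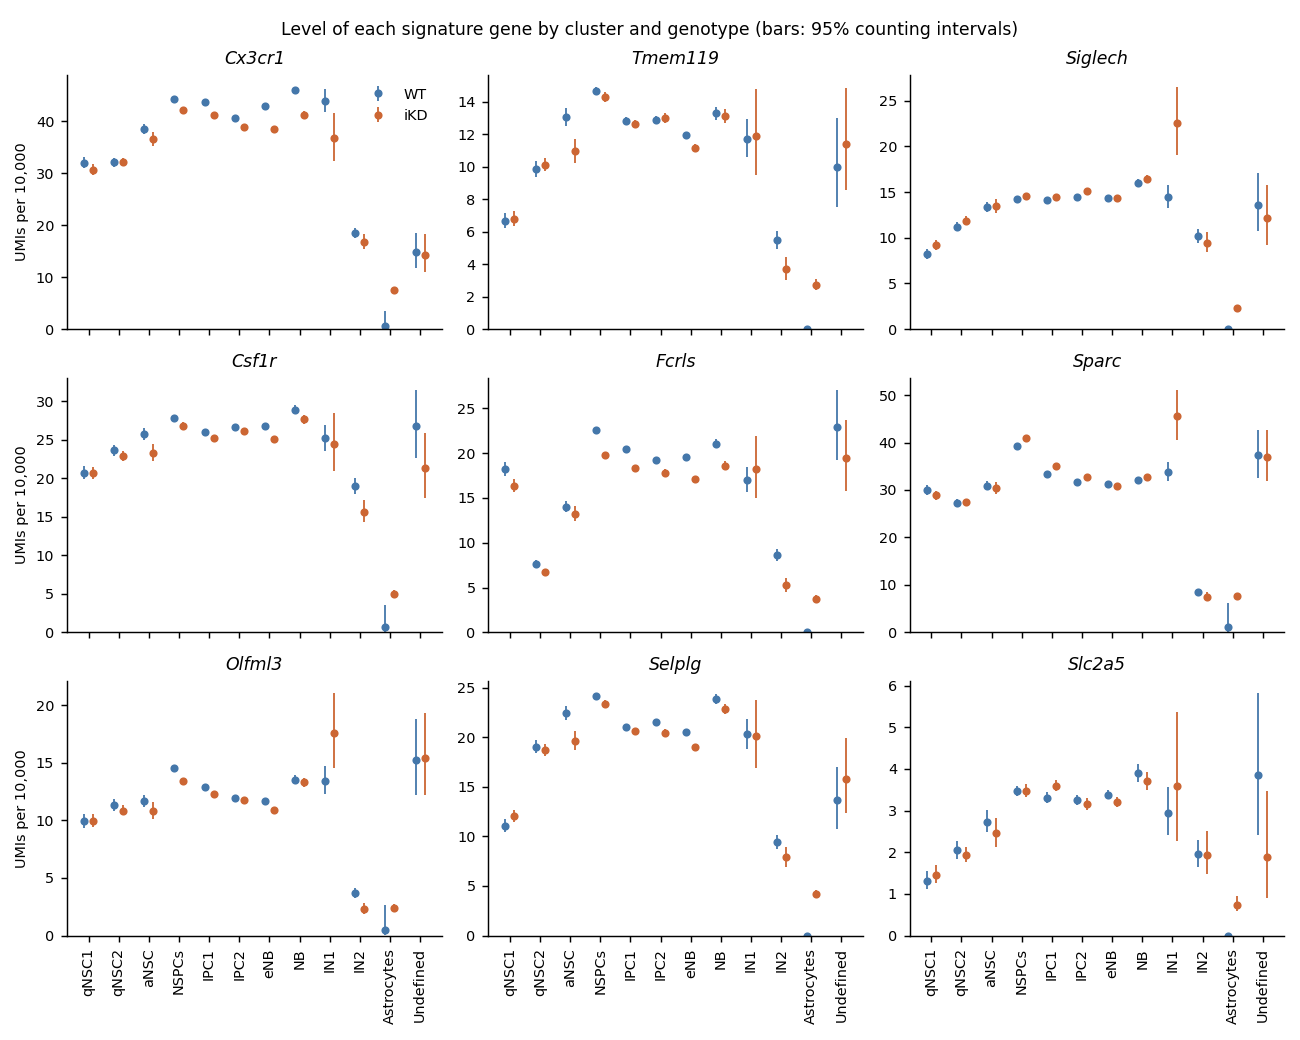
Level of each signature gene (y axis, mean UMIs per 10,000, linear from 0) in the 12 clusters (x axis), with WT in blue and iKD in orange and 95% counting intervals where a UMI was found. In 9 of 9 panels the lowest of the 8 clusters from qNSC1 to NB is qNSC1 or qNSC2, and the iKD points of IN1 rest on 9 cells.

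Summed over the 9 genes, the level was 137 (136 to 139) in qNSC1, 143 in qNSC2, 168 in aNSC, 176 in eNB, 181 in IPC2, 185 in IPC1, 194 in NB and 202.5 (201.8 to 203.2) in NSPCs. No neighbours in this order overlapped, and the span was 1.48-fold. NSPCs and NB held the highest level of 5 and 4 members, and qNSC1 and qNSC2 the lowest level of 7 and 2. Single cells overlapped between these clusters. From the lowest to the highest decile, the summed level of NSPCs ran from 158 to 249 and that of qNSC1 from 94.8 to 183.

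Each cluster was then set against the mean of the other clusters among these 8, with a pseudocount of 0.01, and a log2 ratio of -0.5 or lower was counted. In qNSC1, 4 of 9 members passed, Slc2a5 (-1.16), Tmem119 (-0.884), Selplg (-0.874) and Siglech (-0.688), against 10.9% of 4178 genes that reached a level of 0.5. The median over the members was -0.353, against -0.0276 over those genes. In qNSC2, 2 of 9 passed, Fcrls (-1.38) and Slc2a5 (-0.615), against 2.36% of 4022 genes, with medians of -0.26 and -0.0243. The same 6 pairs of gene and cluster passed in WT cells alone, in iKD cells alone, and in female and in male cells alone. In the other 6 clusters, the members' log2 ratios lay between -0.34 (Fcrls in aNSC) and 0.45 (Slc2a5 in NB).

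**Figure D2:**
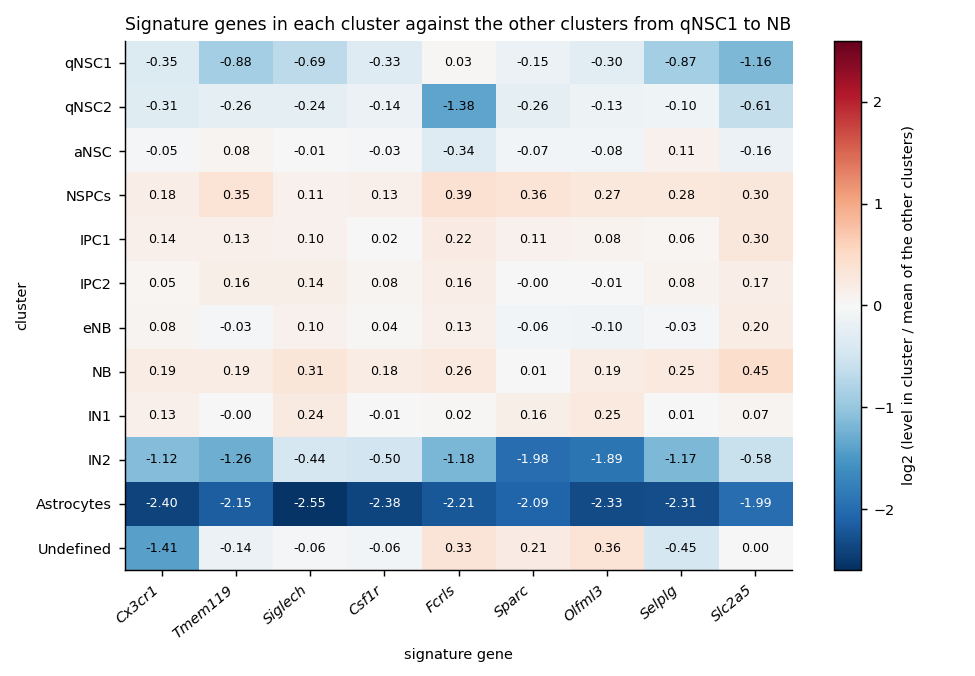
Log2 ratio of each signature gene (columns) in each cluster (rows) to its mean level in the other clusters from qNSC1 to NB, with both genotypes together. The darkest cells of the upper rows are Fcrls in qNSC2 (-1.38) and Slc2a5 in qNSC1 (-1.16), IN2 runs from -0.44 (Siglech) to -1.98 (Sparc), and the cluster named Astrocytes is at -1.99 or lower throughout.

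Further genes of the homeostatic state, taken from a list of 16, followed part of this pattern. In qNSC1, 7 of 16 were at -0.5 or lower, among them P2ry12, the ADP receptor of microglial processes (-0.851), P2ry13 (-0.61), Sall1, a transcription factor of microglial identity (-0.59), and Upk1b (-1.04). In qNSC2, 2 of 16 were at -0.5 or lower, P2ry13 (-0.521) and Upk1b (-1.07), with a list median of -0.168.

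Of the ligands and partners of the members, the adaptor Tyrobp was at 22.2 in qNSC1 and 22.4 in NSPCs, and Spi1 stayed between 3.92 and 4.76 and Irf8 between 3.51 and 4.29 over the 8 clusters. The ligand Csf1 was at 2.39 in qNSC1, against 0.109 (NB) to 0.577 (aNSC) in the other 7 clusters, a log2 ratio of 3.31 for qNSC1. The other ligand of Csf1r, Il34, had UMIs in 0.068% of cells and Cx3cl1, the ligand of Cx3cr1, in 0.136%.

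The share of cells with a UMI depends on depth, so each cell was thinned to 4500 UMIs and shallower cells were left out, which kept 9953 of 10292 cells of the 8 clusters. At that depth Csf1r was found in 100% of cells, Cx3cr1 in 99.99%, Sparc in 99.97%, Selplg in 99.8%, Siglech in 99.3%, Tmem119 in 98.7%, Fcrls in 98.4%, Olfml3 in 98.2% and Slc2a5 in 71.0% (70.1 to 71.9). Unthinned, Slc2a5 was found in 84.4% and the others in 99.1% to 99.99%. In the cluster named Astrocytes, set beside these as a comparison for genes of microglia, the thinned shares ran from 20.4% (Slc2a5) to 64.8% (Sparc). It is not a clean background, since 24 of its 134 cells had UMIs of all 9 genes. Sparc is also made by astrocytes and endothelium, and its source in this cluster was not tested. The median depth was 7622.5 UMIs in the 8 clusters and 7722 in the cluster named Astrocytes.

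Shares below the rest were found in the clusters with low levels. Slc2a5 was found in 38.6% (32.9 to 44.5) of 285 thinned qNSC1 cells, against 74.6% (72.6 to 76.5) of 1965 NSPCs, with 57.5% and 85.2% unthinned at median depths of 8049.5 and 6925 UMIs. Fcrls was found in 82.4% (78.7 to 85.7) of 489 thinned qNSC2 cells, against 99.5% of NSPCs, with 90.6% unthinned at a median depth of 7737. The Slc2a5 share in qNSC1 was 38.35% in WT and 38.8% in iKD cells, and the Fcrls share in qNSC2 was 84.5% and 81.1%, with overlapping intervals.

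The signature was carried by cells as a whole. Of the 10292 cells, 8559 (83.2%) had UMIs of all 9 genes, and 3 cells (0.0292%) had 2 or fewer. After thinning, 68.1% had all 9 and 97.6% had 8 or more, and the thinned share with 8 or more was 85.3% in qNSC1, 87.3% in qNSC2 and 99.4% in NSPCs. The share with 8 or more was 98.0% in WT and 97.1% in iKD cells of the 8 clusters.

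**Figure D3:**
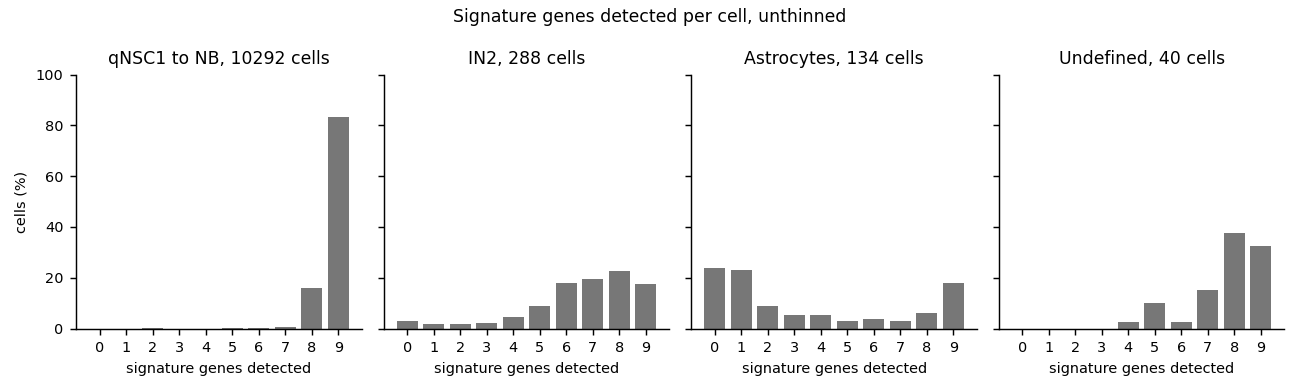
Number of the 9 signature genes with a UMI in a cell (x axis) against the percent of cells (y axis), unthinned, for the 8 clusters from qNSC1 to NB and for 3 other clusters. In the 8 clusters 83.2% of cells have all 9, whereas the cluster named Astrocytes has most of its cells at 0 to 2 or at 7 to 9.

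IN1 and IN2 are deposited under like names but differed in these genes. IN1, with 50 cells, had a summed level of 186. In IN2, with 288 cells, it was 80.4, a log2 ratio of -1.11 to the 8 clusters, with 85.2 in WT and 70.5 in iKD cells. There, 7 of 9 members were at -0.5 or lower, against 30.1% of 4661 genes, with a member median of -1.17 and a median over all genes of 0.268. The members did not move evenly. Sparc (-1.98) and Olfml3 (-1.89), the secreted pair, were lowest, whereas Csf1r (-0.499), Siglech (-0.439) and Slc2a5 (-0.577) were nearer to the other clusters. As a result Csf1r made up 21.5% (20.6 to 22.4) of the signature's UMIs in IN2 and 14.4% in the 8 clusters, and Sparc 10.5% and 18.4%. Among the other homeostatic genes, Mertk, a receptor for apoptotic cells (0.902), Entpd1 (0.714), Slco2b1 (0.627) and Tgfbr1 (0.533) were at 0.5 or higher in IN2, 4 of 16 where 40.3% of all genes tested were, and 5 of 16 were at -0.5 or lower, near the share of all genes. Tyrobp, the adaptor of Siglech, was at 3.05 beside 18.5 in the 8 clusters, and 8 of the 10 microglia markers were at -0.5 or lower. Markers of neurons were higher, with the 5 neuroblast genes summing to 1.46 in IN2 and 0.00237 to 0.0205 in the 8 clusters, and the 5 granule neuron genes to 2.78 and 0.21 to 0.292. IN2 had a median of 3102.5 UMIs and 1521 genes per cell, a Malat1 level of 334 against 264 in the 8 clusters and a mitochondrial share of 0.554% against 0.849%, and the part of these in the result was not tested.

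The cluster named Undefined, with 40 cells and a median of 2572.5 UMIs, had a summed level of 154, within the range of the 8 clusters. Cx3cr1 was the member furthest below the other clusters. Its level was 14.6, with 14.8 in WT and 14.4 in iKD cells, a log2 ratio of -1.41. It was the 1 of 9 members at -0.5 or lower, where 45.0% of 4486 genes were. In WT cells alone 2 of 9 were, with Selplg (-0.585) added, against 46.1% of genes. In iKD cells alone 2 of 9 were, with Slc2a5 (-0.601, from 10 UMIs) added, against 43.2%. Cx3cr1 made up 8.98% (7.63 to 10.5) of the signature's UMIs there and between 21.2% and 23.0% in the 8 clusters. The level of Malat1, a nuclear transcript, was 5.83 in this cluster, the mitochondrial share was 1.18%, and Mertk was at 1.25 beside 14.5 in the 8 clusters. The part of these in the result was not tested.

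The cluster named Astrocytes held 134 cells, 4 of them WT, and had a mean Ttr level of 1019. All 9 members were at -0.5 or lower, against 52.2% of 4944 genes, and the summed level was 35.5. This mean covered unlike cells. Of the 134 cells, 75 had UMIs of 2 or fewer members, with a median Ttr level of 984 and, as the selection fixes, a low median summed level (0.996). A further 36 cells had 7 or more members, with a median summed level of 118.5 and a median Ttr level of 330, and 23 cells lay between. The cells with 2 or fewer members had a median of 8118 UMIs and 2523 detected genes. Those with 7 or more had 7598 UMIs and 2944.5 detected genes. Of the signature's 3390 UMIs in this cluster, 3386 came from iKD cells, so its iKD cells were set beside iKD cells of the 8 clusters. Sparc made up 21.2% (19.8 to 22.6) of these UMIs beside 19.0%, and Siglech 6.67% (5.86 to 7.57) beside 8.14%. For the other members, among them Cx3cr1 with 20.6% (19.2 to 22.0) beside 21.9%, the interval held the share of the 8 clusters. The split by number of members was chosen after the values were seen.

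Within a cluster, the correlation of the members from cell to cell was low to moderate. Over the NSPCs, thinned to 4500 UMIs, the Pearson correlation of log2 values had a median of 0.0845 over the 36 pairs in 1146 WT cells and of 0.0746 in 819 iKD cells, and 35 and 33 pairs were above 0. The highest was that of Tmem119 and Selplg, the neighbours on chromosome 5, at 0.255 in WT and 0.214 in iKD cells, and the next in both was Fcrls and Sparc, at 0.21 and 0.191. Because this pair came first, it was then looked at in each of the 8 clusters and both genotypes. Over these 16 groups of cells it had the highest median of the 36 pairs, 0.223, with a range of 0.15 (eNB, iKD) to 0.521 (qNSC1, iKD). Outside the NSPCs, where the pair was picked, it ranked first in 2 of 14 groups and no lower than 9. The median of the other pairs ran from 0.0573 (IPC1, WT) to 0.193 (qNSC1, iKD), with 0.18 in qNSC1 WT and 0.16 and 0.151 in aNSC. These values are descriptions, since cells share their library and depth.

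**Figure D4:**
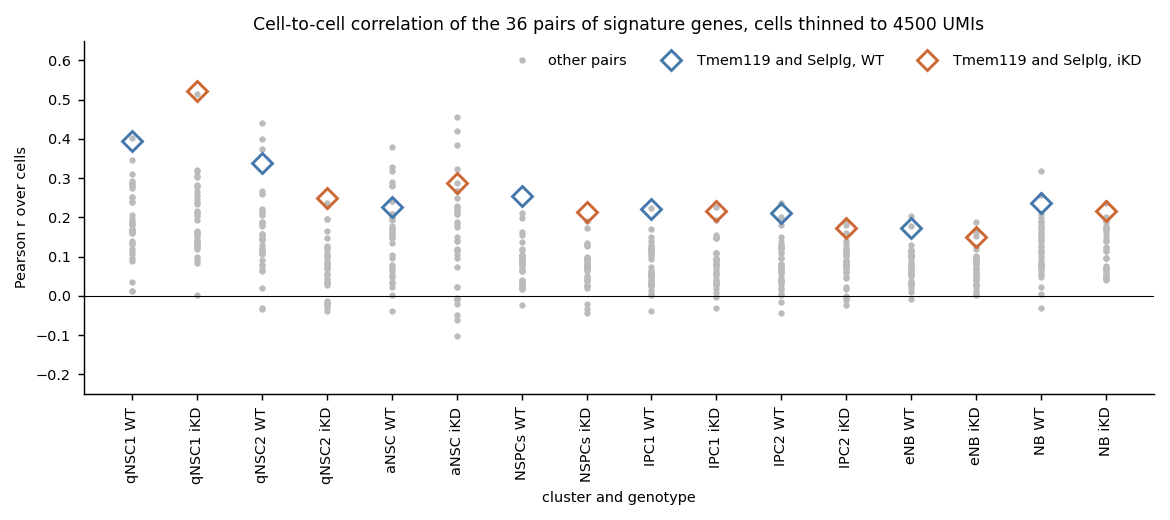
Pearson correlation over cells (y axis) of the 36 pairs of signature genes in each of the 8 clusters and 2 genotypes (x axis), with Tmem119 and Selplg as open diamonds and the other pairs as grey points. The diamonds lie between 0.15 and 0.521 and above 0 in all 16 groups, and most grey points lie below them.

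Likeness of pattern was measured over 20 points, the 10 clusters from qNSC1 to IN2 in each genotype, among 5945 genes that reached a level of 0.5 in at least 1 point. It is a description, since the points share their libraries and both IN2 points lie far below the rest. The genes most like the summed level were Ecscr (r = 0.979), Cx3cr1 itself (0.979) and Yipf4 (0.975). Tmem119 and Selplg were each other's nearest gene among all 5945 (0.986). The nearest gene was another member for Csf1r (Tmem119, 0.974) and Olfml3 (Sparc, 0.982) too. For the others it was Tmem30a for Cx3cr1 (0.966), Pmepa1 for Siglech (0.942), Scoc for Fcrls (0.948), Sec11c for Sparc (0.99) and P2ry12 for Slc2a5 (0.921). The members least like their own sum were Slc2a5 (0.708) and Siglech (0.74). A member is part of the sum, Cx3cr1 with 22.2% and Slc2a5 with 1.79% of its UMIs in the 8 clusters. These r values therefore depend in part on a member's share. The IN1 point of iKD, where Siglech was at 22.6, rests on 9 cells.

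The comparison of iKD with WT asks how the 9 genes stood in the cells sorted from mice with floxed Vegfa. It was made over the 6 clusters that the study compared, qNSC1, qNSC2, aNSC, NSPCs, IPC1 and IPC2, with 3752 WT and 3412 iKD cells. The summed level was 186.9 in WT and 180.0 in iKD cells, a log2 ratio of -0.0545 (-0.0602 to -0.0488) or a difference of -3.71%. The median over the members was -0.0626, and that over 3863 genes, those reaching a level of 0.5, was 0.00949. None of the 9 members reached a log2 ratio of -0.25 or 0.25, which 1.86% and 0.751% of these genes did.

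The largest difference was that of Fcrls, at 19.7 in WT and 17.3 in iKD cells, a log2 ratio of -0.185 (-0.203 to -0.167). It was lower in iKD cells in 6 of 6 clusters, from -0.0859 in aNSC to -0.191 in NSPCs, with 5 counting intervals below 0. Csf1r was at 26.5 and 25.4 (-0.0626), and was lower in iKD cells in 6 of 6 clusters, with 4 intervals below 0. Cx3cr1 was at 41.7 and 39.5 (-0.0787) and was lower in 5 of 6 clusters, with qNSC2 at 0.000725. Olfml3 (12.9 and 12.2, -0.0819), Selplg (21.8 and 20.7, -0.0726) and Tmem119 (13.1 and 12.6, -0.0501) were also lower over the 6 clusters together.

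Against these, Siglech was at 13.9 in WT and 14.1 in iKD cells (0.0241), and was higher in iKD cells in 6 of 6 clusters, with 2 intervals above 0. Sparc was at 34.2 and 34.9 (0.0323), with 3 of 6 intervals above 0, and Slc2a5 at 3.178 and 3.180 (0.000829, -0.0427 to 0.0443). These intervals cover counting error only, and differences of this size between 2 pools of mice cannot be told apart from differences between pools.

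Sex differed between the libraries. Of the cells that could be scored by Xist and Y-linked genes in these 6 clusters, 51.1% were female in WT and 70.8% in iKD, and the share was 21.5% and 94.1% in aNSC and 0.836% and 15.8% in IPC2. The members were therefore compared within each sex. Among female cells Fcrls was at 20.8 in WT and 17.0 in iKD cells, a log2 ratio of -0.285 (-0.309 to -0.262), and was the 1 member of 9 at -0.25 or lower, as were 2.45% of 3884 genes. Among male cells it was at 18.8 and 18.2, a log2 ratio of -0.0514 (-0.0825 to -0.0204), and none of the 9 members was at -0.25 or lower, where 5.01% of 3934 genes were. The summed level had log2 ratios of -0.0894 in female and -0.0238 in male cells. By cluster, the female ratio of Fcrls lay between -0.185 and -0.283 in qNSC1, qNSC2, NSPCs and IPC1, was -0.0251 in IPC2 with 9 WT cells, and was 0.105 (-0.0658 to 0.279) in aNSC. The clusters with the lowest Fcrls levels, qNSC2 and aNSC, gave 241 and 96 of the 2230 female iKD cells and 94 and 38 of the 1765 female WT cells. With equal weight to the 6 clusters, an alternative chosen after seeing the data, the female ratio of Fcrls was -0.14 and 0 of 9 members were at -0.25 or lower. Male cells, of which aNSC held 139 in WT and 6 in iKD, were not weighted in this way. Cx3cr1 (-0.114 and -0.0773) and Selplg (-0.0705 and -0.0806) were lower in iKD cells of both sexes, with intervals below 0. In aNSC, Tmem119 was at 13.1 in WT and 11.0 in iKD cells (-0.255), and among the female cells of that cluster, 38 WT and 96 iKD, its log2 ratio was -0.106.

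**Figure D5:**
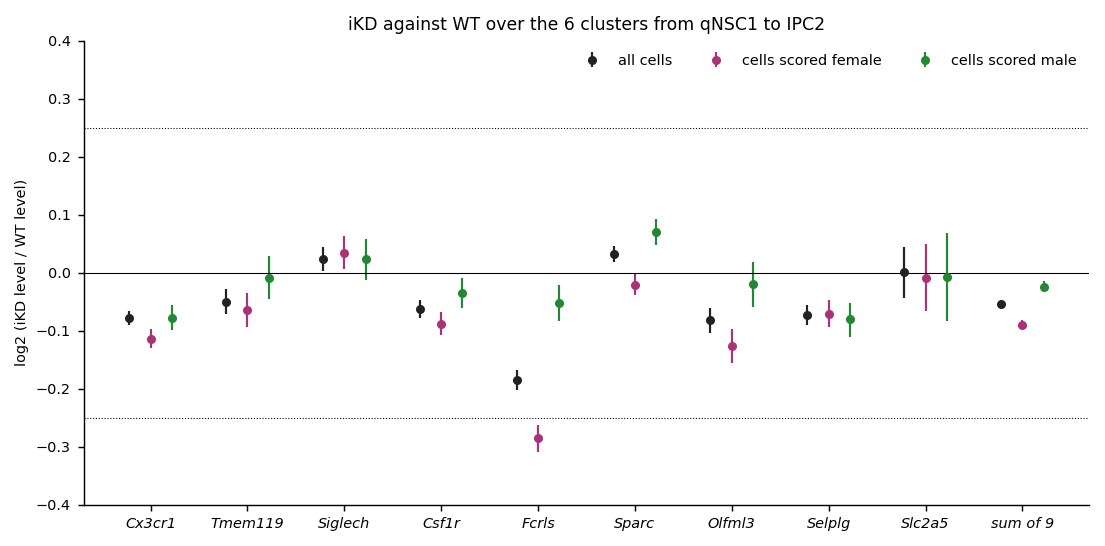
Log2 ratio of the iKD level to the WT level (y axis) of each signature gene and of their sum, over the 6 clusters from qNSC1 to IPC2, for all cells (black), cells scored female (purple) and cells scored male (green), with 95% counting intervals. Dotted lines mark -0.25 and 0.25, and only Fcrls in female cells (-0.285) lies beyond one of them.

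Markers of other cells differed between the libraries as well. Ttr, which is made by the choroid plexus, was at 0.137 in WT and 10.2 in iKD cells of the 6 clusters, and the 8 choroid plexus markers summed to 0.154 and 10.6. The 10 genes of the immediate early and dissociation response summed to 106 and 114, the 10 microglia markers to 361.5 and 357.7, the 16 further homeostatic genes to 259 and 254, and the 8 border macrophage markers to 0.0816 and 0.0852. Of the 16 homeostatic genes, 0 passed -0.25 or 0.25, and their median log2 ratio was -0.0298. With Ttr, sex-linked and mitochondrial genes taken out of the total, the log2 ratio of the summed signature level was -0.053.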

How the data were processed

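EYFP+ DG cells of 1 WT and 1 iKD library were analysed as deposited. Per the labels and the study's methods, Cell Ranger 7.0.1 aligned and deduplicated the 3′ reads and Seurat 4.1.1 filtered, integrated and clustered the cells. The processing notes name GRCh38 although the tables hold mouse symbols, and the mouse build is not given in the sources used here. The authors deposited natural log values, taken of each cell's UMIs per 10,000 after adding 1. From them the UMI counts were recovered, with 100% of 32261786 values above 0 whole within 0.01.

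The WT cells held 44142118 UMIs and the iKD cells 37451839. All cells, clusters and names were used as deposited, and no doublet caller was run. The study's methods describe limits on detected genes against multiplets and damaged cells, but 496 of 10804 deposited cells lay under the lower limit of 2000 genes (range 1004 to 3999). Levels are averages over cells of the UMIs per 10,000, and ratios were log2 with a pseudocount of 0.01. Intervals are exact Poisson (sums) and exact binomial (shares, ratios) at 95%. They cover counting error only. No p-value was computed, because there is 1 library per genotype. Cells with UMIs of Xist alone were scored female and those with UMIs of Y-linked genes alone male.

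The members, the gene lists and the fold thresholds were chosen with earlier results of these data known. Named genes are the 9 members, list genes that a result turns on, and by rule the 3 genes most like the summed level and the 1 most like each member. Markers of monocytes, intermediate progenitors, neuroblasts, granule neurons, astrocytes, endothelium and mural cells were found in medians of 0.816%, 0.0146%, 0.0874%, 0.651%, 0.641%, 0.612% and 0.0972% of cells of the 8 clusters. The steps were tested on simulated counts and gave the direction of every changed gene. Recovery of differences as small as those of the members between the libraries, or with spread between pools of mice, was not tested. Alternatives were other scalings, pseudocounts, filters, sexes and thinning. Python 3.11.15, numpy 2.4.6, scipy 1.17.1, pandas 2.3.3 and matplotlib 3.10.9 were used.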

Additional observations from a re-analysis of the deposited data

Results flagged for a closer look

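The iKD to WT difference of Sparc had opposite signs in the sexes, with counting intervals on opposite sides of 0. Over the 6 clusters from qNSC1 to IPC2 its log2 ratio was -0.0203 in female cells, at levels of 35.7 in WT and 35.2 in iKD cells, and 0.0703 in male cells, at 32.5 and 34.2. Within clusters, the female ratio was above 0 in qNSC2 (0.0372), NSPCs (0.0432), IPC1 (0.0696) and IPC2 (0.0373) and below 0 in qNSC1 (-0.0734) and aNSC (-0.0232). With equal weight to the 6 clusters, chosen after seeing the data, the female ratio was 0.0151 and so no longer below 0. Male cells were not weighted in this way. The difference between the sexes was not tested, since each sex of a genotype comes from 1 pool of mice.

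Selplg differed in sign between clusters in the same way. Its log2 ratio was -0.191 (-0.277 to -0.105) in aNSC, at levels of 22.4 in WT and 19.7 in iKD cells, and 0.12 (0.0101 to 0.23) in qNSC1, at 11.1 and 12.1. The difference between the clusters was not tested. In aNSC, where 21.5% of scored WT and 94.1% of scored iKD cells were female, the log2 ratio of Selplg among female cells was -0.12, and in qNSC1 it was 0.0643 among female and 0.156 among male cells.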

How the results depend on the processing

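No paired analysis was possible because the labels give 1 library per genotype. The summed iKD to WT ratio of -0.0545 was below 0 under all 13 alternatives and under 2 chosen after seeing the data, without the cells of the barcodes that both libraries held (-0.0545) and in female cells with equal weight to the 6 clusters (-0.0406). It lay outside its counting interval with scaling by the median ratio (-0.064), in female cells (-0.0894), in male cells (-0.0238), over 8 clusters (-0.0655) and as the mean of the 6 cluster ratios (-0.0405). The median member ratio did so in male cells (-0.0202) and as the mean of the 6 cluster ratios (-0.0407). The count of members at -0.25 or lower was 1 in female cells, 0 in female cells with equal weight to the 6 clusters, and 0 elsewhere. Over 14 alternatives, Sparc (-0.0203 in female cells) and Tmem119 (0.00874 in female cells with equal weight to the clusters) kept their sign under 13, Slc2a5, whose interval held 0, under 8, and the other 6 members under 14. Among clusters, the NSPCs to qNSC1 ratio and the 6 gene and cluster pairs at -0.5 or lower held under all 9 alternatives. The IN2 ratio was -1.16 as CPM, -1.05 in WT, -1.27 in iKD, -1.17 without cells under 2000 genes and -1.23 when thinned, which left 73 of 288 cells. That of the cluster named Astrocytes was -2.35 as CPM, -2.21 without Ttr, sex-linked and mitochondrial genes in the total, -5.94 in the 4 WT cells, -2.22 in iKD, -0.475 in the 25 scored female and -0.475 in the 7 scored male cells, -2.43 without the 5% of cells with most genes, -2.08 without cells under 2000 genes, -2.22 when thinned and, chosen after seeing the data, -6.9 in cells with 2 or fewer members, which the selection fixes. The cause was not tested. Shares moved with depth by construction. With 2 UMIs asked for, thinning to 2000 UMIs and no thinning, the median member share in 8 clusters was 96.3%, 92.9% and 99.7%, that of Slc2a5 40.7%, 44.5% and 84.4%, that of Slc2a5 in qNSC1 15.1%, 19.9% and 57.5%, and that of Fcrls in qNSC2 65.0%, 64.1% and 90.6%. All 9 members were found in 83.2% of cells without thinning. The lowest member, Slc2a5, at 3.26 UMIs per 10,000 over the 8 clusters, had the lowest shares, and the Fcrls share in qNSC2 moved with depth too.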

Other observations

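Disease-associated microglia genes, a list of 8 of which 7 were in the tables, summed to 39.7 UMIs per 10,000 in qNSC1 and 24.2 in qNSC2, against 9.21 to 13.4 in the other 6 clusters from aNSC to NB. Cd9, a tetraspanin, was at 23.0 in qNSC1 and 8.365 in qNSC2, beside 8.865 in NSPCs. Apoe, a lipid carrier, was at 14.0 and 15.3, beside 3.94 in NSPCs, and so made up most of the sum in qNSC2. Set against the other clusters, Apoe (log2 ratio 1.55), Axl (1.08) and Spp1 (0.165) were higher in qNSC2. Cd9 (-0.211), Lpl (-0.148), Itgax (-0.335) and Cst7 (-0.765) were lower there. Axl, Spp1, Itgax and Cst7 stayed below a level of 0.5 in the 8 clusters. Lpl, a lipase, was at 1.61 in qNSC1 and 0.268 in qNSC2. The members of the homeostatic signature were lowest in these same 2 clusters. The clusters were made from all of these genes, so this is a description.

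Immediate early and dissociation response genes summed to 32.2 in NB, against 91.3 to 124 in the other 7 clusters from qNSC1 to eNB, with Fos at 2.36 in NB and 21.3 in NSPCs and Jun at 17.8 and 40.1.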
